A study of Mus musculus with 4 samples.

Results

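The AP-1 genes were examined in the peak list of the ATAC-seq libraries of the TRAFTAC experiment. The members were the 3 genes of the JUN family (JUN, JUNB and JUND) and the 4 genes of the FOS family (FOS, FOSB, FOSL1 and FOSL2). A peak was assigned to a gene if it overlapped the 10 kb on either side of the gene start on GRCh38, whatever its height. This placed 19 of the 48751 listed peaks at the 7 genes, 11 at the JUN family and 8 at the FOS family, and 0 peaks were shared by the windows of different genes.

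AP-1 is a dimeric transcription factor that binds DNA through basic leucine zippers. JUN proteins can pair with each other or with FOS proteins, whereas FOS proteins bind DNA mainly with a JUN partner. Several of these genes are immediate-early genes, which are transcribed within minutes of a stimulus without new protein synthesis. TNF-α reaches AP-1 through the JNK kinases, which phosphorylate JUN, and NFkB and AP-1 are both effectors of the TNF receptor.

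The cells were HEK293, an established human line from embryonic kidney. In ATAC-seq the Tn5 transposase inserts adapters into accessible DNA, so that fragments pile up where chromatin is open. All 4 libraries came from cells transfected for 6 h with 1 μg/mL of a plasmid for a dCas9 fused to an HA tag and HaloTag7, together with 25 nM of a TRAFTAC, a DNA-RNA chimera whose DNA is bound by a transcription factor and whose RNA recruits the dCas9. In 2 libraries the DNA carried the NFkB motif, and in 2 it was scrambled. All were then given 5 ng/mL TNF-α for 19 h with 25 μM HP14, a PROTAC against the HaloTag, although the treatment text also names its solvent DMSO without tying it to a library. DNase was added to the cells before harvest. The design therefore holds 0 libraries without TNF-α, and it uses a single cell line. The listed values pool the 4 libraries. The values below describe both TRAFTACs together, and a difference between them was not measured. The labels name the mouse as organism, but 3163 of the peaks lie on chromosomes 20, 21 and 22, which the mouse lacks.

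The gene start lay inside a peak at 7 of 7 genes. The summit of this start peak, its point of highest fragment coverage, was within 300 bp of the annotated start in all 7. Each of the 12 other peaks at the genes lay apart from the start, 5 of them upstream and 7 downstream in the direction of transcription. The start peak had the highest fold enrichment of its window at 5 genes, the exceptions being JUNB and FOSB. The fold enrichment is the caller's ratio of the fragments at the summit to a local background, and it is a linear ratio throughout. It describes openness of the DNA relative to its surroundings, and gives no level of transcription.

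**Figure D1:**
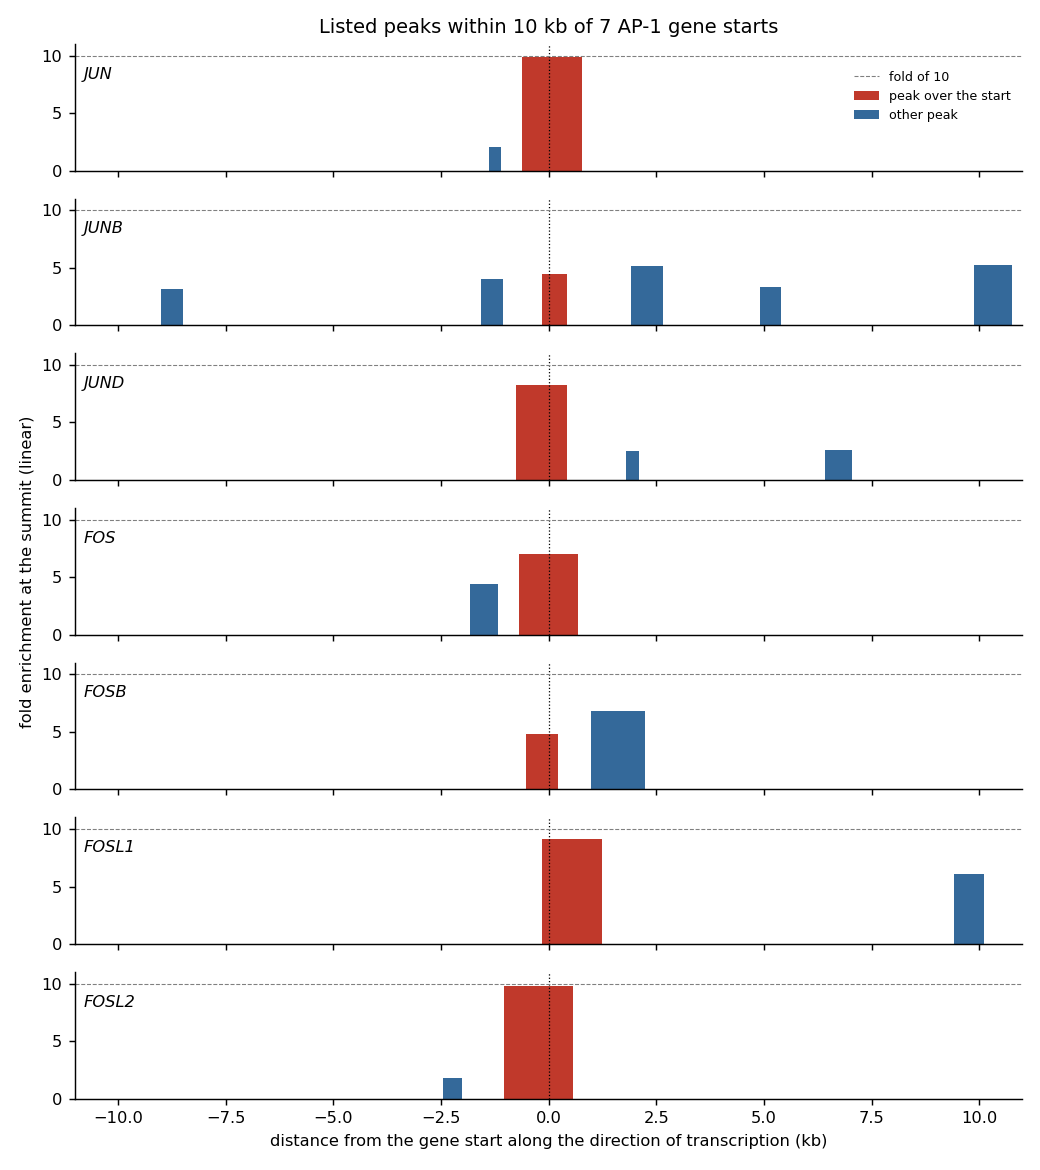
Each panel shows the window of 1 gene, with distance from the gene start along the direction of transcription in kb on the horizontal axis and fold enrichment at the summit on the vertical axis. Each bar is 1 listed peak of the 4 pooled libraries, drawn to its true width, red if it covers the start and blue otherwise. The bars of all 19 peaks end below the dashed line at a fold of 10, and JUNB has 6 peaks where the FOS family genes have 2 each.

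JUN encodes the founding member of its family and the substrate from which JNK takes its name. Its start peak (chromosome 1, 58783282 to 58784676) was 1395 bp wide and reached from 629 bp upstream to 765 bp downstream of the start. The fold enrichment was 9.86 and the −log10 q-value 436, the highest of the 19 peaks in both measures. The −log10 q-value, the caller's measure of confidence, was above that of 98.6% of all listed peaks. A small second peak of 267 bp lay 487 bp further upstream (58785164 to 58785430), with its summit 1161 bp from the start and a fold enrichment of 2.04. Only these 2 peaks were listed in the JUN window.

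JUND, the family member that is expressed in many resting cells, also had a start peak of high confidence (chromosome 19, 18281194 to 18282378). It was 1185 bp wide, with a fold enrichment of 8.24 and a −log10 q-value of 411. Its summit lay 252 bp upstream of the start. Downstream, a peak of 308 bp had its summit 1965 bp from the start and a fold enrichment of 2.54, and a peak of 613 bp had its summit at 6604 bp and a fold enrichment of 2.59. Both of these folds were low for the list, above 5.08% and 5.60% of all peaks respectively.

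JUNB, which can restrain JUN at some target genes, showed a different layout. Its start peak (chromosome 19, 12791338 to 12791908) was the narrowest of the 7 start peaks, at 571 bp, and had the lowest fold enrichment among them, 4.43. The summit was 6 bp upstream of the start. The window held 5 further peaks, with summits 8791 and 1347 bp upstream and 2148, 5183 and 10418 bp downstream. Their fold enrichments, in the same order, were 3.14, 3.99, 5.17, 3.34 and 5.25. The peak 2148 bp downstream (12793405 to 12794146) also had a higher −log10 q-value than the start peak, 109 against 74.7. JUNB thus had several peaks of similar fold, but they differed in fragments at the summit. These ranged from 58 in the peak 8791 bp upstream to 298 in the one 2148 bp downstream. The outermost peak only reached the window with its edge.

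FOS, the classical immediate-early gene, had a start peak that was nearly symmetrical about the start. It ran from 690 bp upstream to 677 bp downstream (chromosome 14, 75278136 to 75279503), with the summit 2 bp upstream. The fold enrichment was 6.97 and the −log10 q-value 108. The other peak (75276997 to 75277651) lay 484 bp beyond it on the upstream side, was 655 bp wide and had a fold enrichment of 4.41. At JUN and at FOS alike, the other peak was therefore upstream and separated from the start peak by less than 500 bp.

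FOSB, whose shorter splice form ΔFosB is known for its stability, had its stronger peak downstream of the start. The start peak (chromosome 19, 45467468 to 45468198) was 731 bp wide with a fold enrichment of 4.85 and a −log10 q-value of 66.9, the lowest −log10 q-value of the 7 start peaks. The second peak (45468968 to 45470222) spanned 973 to 2227 bp downstream of the start. It was 1255 bp wide, with a fold enrichment of 6.77 and a −log10 q-value of 133. Whether it covers an exon or an intron was not analysed here.

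FOSL1 and FOSL2 encode the FOS-related antigens, which lack the strong activation domain of FOS. The start peak of FOSL1 (chromosome 11, 65899344 to 65900741) extended mainly into the gene, 1229 bp downstream against 168 bp upstream, and had a fold enrichment of 9.14. Its summit, 51 bp downstream of the start, sat near the upstream end of this interval. The other peak of the FOSL1 window lay 9917 bp downstream, at its edge, with a fold enrichment of 6.06. Despite this lower fold, it exceeded the FOSL1 start peak in −log10 q-value, 118 against 97.5. It also had more fragments at the summit, 279 against 165. The start peak of FOSL2 (chromosome 2, 28391724 to 28393324) was the widest of all 19, at 1601 bp. It leaned the other way, with 1035 bp upstream and 565 bp downstream, and had a fold enrichment of 9.79. The second FOSL2 peak, 2398 bp upstream, had the lowest fold enrichment of the 19, 1.84, and the lowest −log10 q-value, 4.99.

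**Figure D2:**
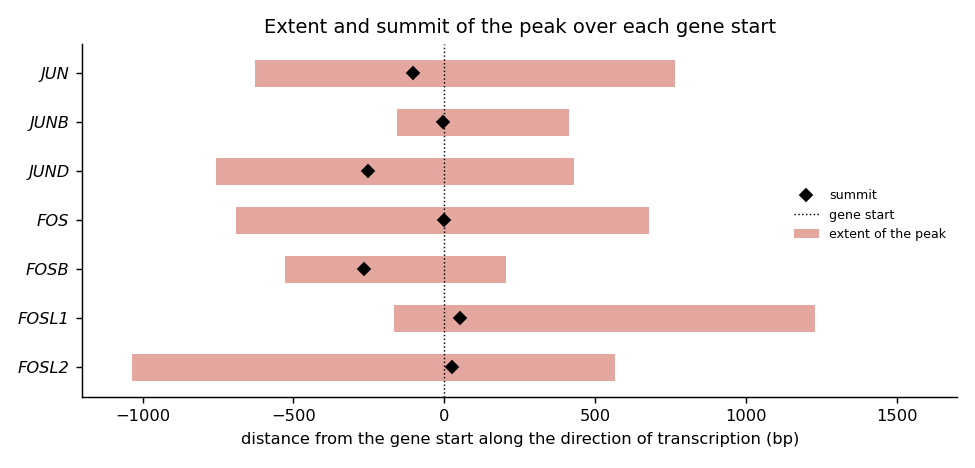
For each gene, the bar shows the extent of the start peak and the diamond its summit, in bp from the gene start along the direction of transcription. The 7 summits lie between 265 bp upstream (FOSB) and 51 bp downstream (FOSL1), while the bars differ from 571 bp at JUNB to 1601 bp at FOSL2.

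The fragments behind these peaks were recovered from the listed fold and p-value. For all 19 peaks a whole number of fragments at the summit, the summit pileup, gave the listed −log10 p-value to within 0.001. In the start peaks, the pileup over the 4 libraries was 767 fragments at JUND (95% Poisson interval 714 to 823), 719 at JUN (667 to 774) and 468 at FOSL2 (427 to 512). It was 239 at JUNB (210 to 271), 225 at FOS (197 to 256), 194 at FOSB (168 to 223) and 165 at FOSL1 (141 to 192). These intervals cover counting error only and give no spread between libraries. By them, JUND and JUN could not be told apart, both lay above FOSL2, and FOSL2 lay above the other 4 genes. Each of JUNB, FOS and FOSB overlapped its neighbour in the order, whereas the intervals of JUNB and FOS did not overlap that of FOSL1.

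The order by fold enrichment was another one, because the local background differed between the genes. It was 92.2 fragments at JUND, 72.0 at JUN, 53.1 at JUNB, 46.9 at FOSL2, 39.2 at FOSB, 31.4 at FOS and 17.2 at FOSL1. FOSL1 thus had the lowest pileup of the 7 start peaks but the third highest fold enrichment, and JUND had the highest pileup but only the fourth highest fold. The lowest background of the list, taken as genome-wide, was 6.32 fragments. MACS2 estimates the local background from the surrounding sequence, to which the fragments of the peak itself and of its neighbours contribute. Their part in the background was not tested.

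**Figure D3:**
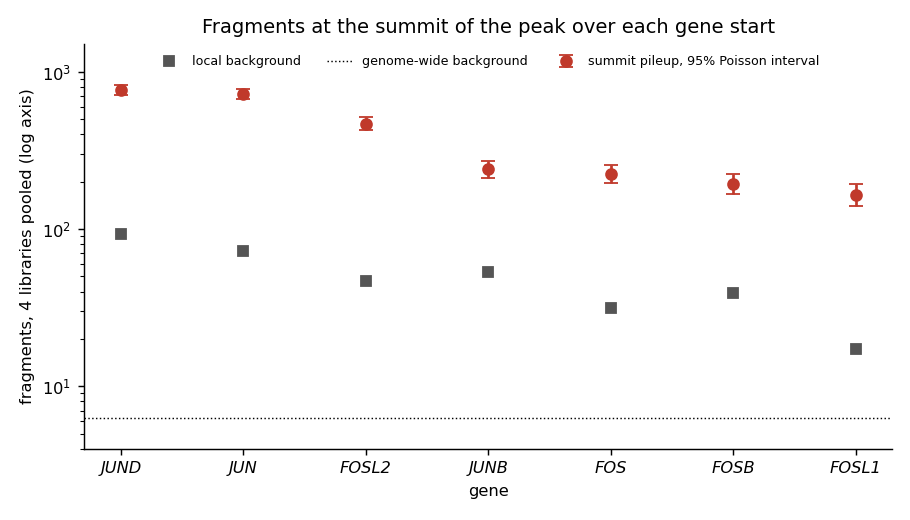
For the start peak of each gene, ordered by height, circles give the summit pileup in fragments of the 4 pooled libraries with exact 95% Poisson intervals, and squares give the local background, on a log axis. The pileup falls from 767 fragments at JUND to 165 at FOSL1, and all 7 squares lie above the dotted genome-wide background of 6.32.

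The pooled list was used to place these values. A fold enrichment of at least 10 was found in 0 of the 19 peaks and in 21.8% of all listed peaks, with JUN (9.86) and FOSL2 (9.79) just under this limit. A fold of at least 5 was reached by 9 of the 19 peaks (47.4%), 5 of them start peaks, against 56.8% of the list. The median fold enrichment was 4.85 over the 19 peaks and 8.24 over the 7 start peaks, beside 5.60 in the whole list. The start peaks of JUN, FOSL2, FOSL1, JUND and FOS were above the median fold of the list, and those of FOSB and JUNB were below it.

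In 14 of the 19 peaks the local background was 5 times the genome-wide value or more, against 8.30% of the list, and the background of all 19 was above the upper quartile of the list, 16.5 fragments. The median pileup was 212 fragments in the 19 peaks, where the list had a median of 56. A −log10 q-value of at least 100 was reached by 7 of the 19 peaks (36.8%), against 21.5% of the list. Of the listed peaks that passed this value, 78.6% had a fold enrichment of at least 10. That 0 of these 7 did follows from the 0 of 19 given above and adds no further evidence. The limit of 100 was chosen after seeing the data. The median width was 677 bp in the 19 peaks and 1368 bp in the 7 start peaks, beside 590 bp in the list. The list includes many weak peaks. Its peaks that passed the limit of 100 had a median width of 1097 bp and a median pileup of 280 fragments. Their median local background was 22.9 fragments, against 45.1 in the 19 peaks. A width of at least 1000 bp was seen in 6 of the 19 peaks, against 22.9% of the list. Of these 6, 5 were start peaks, at JUN, JUND, FOS, FOSL1 and FOSL2, and the other was the downstream FOSB peak. These are descriptions of few peaks that share windows, and no test was run on them. Starts of other genes were not examined, so whether the widths, pileups and folds are particular to the AP-1 genes was not tested.

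**Figure D4:**
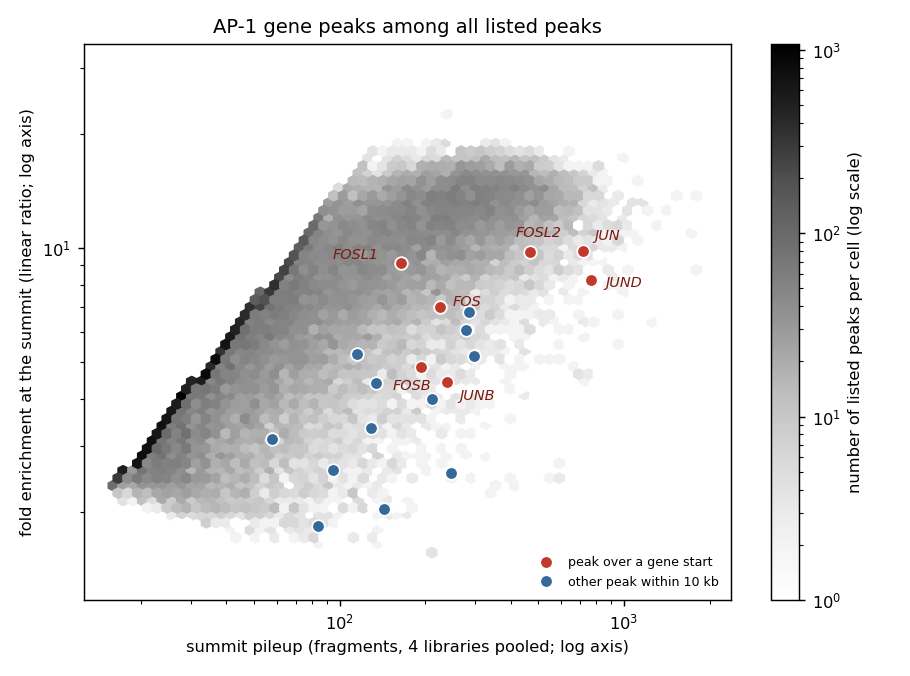
Summit pileup in fragments of the 4 pooled libraries is plotted against fold enrichment at the summit, both on log axes, with the listed peaks as grey cells shaded by their number and the 19 AP-1 gene peaks as points. The plot leaves out 85 peaks beyond a pileup of 2000 or a fold of 30. All 19 points lie below a fold of 10, and JUND and JUN, with 767 and 719 fragments, lie farthest to the right among them.

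The windows also differed in how crowded they were. Listed peaks covered 8.31% of the window at JUN, 9.88% at FOSL1, 9.93% at FOSB, 10.1% at FOS, 10.2% at FOSL2, 10.5% at JUND and 14.6% at JUNB. Of the whole chromosomes they covered 1.45% on chromosome 1, 0.949% on chromosome 2, 1.29% on chromosome 11 and 0.793% on chromosome 14. The share was highest on chromosome 19, 3.83%, which holds JUNB, JUND and FOSB, so the order of the windows is not one relative to the chromosome. Within 10 kb of the JUNB start summit lay 4 other summits, and 3 lay within this distance of the JUND summit, where the mean over all peaks of chromosome 19 was 1.29. FOSB, on the same chromosome, had 1. These distances run from the start summit and not from the gene start. The JUND count therefore takes in a peak 10222 bp upstream of the start, outside the window, and the JUNB count leaves out the one 10418 bp downstream. JUN, FOS, FOSL1 and FOSL2 each had 1 other summit, beside means of 0.839, 0.553, 0.745 and 0.581 on their own chromosomes. Neighbouring genes were not annotated here, and the gene to which a peak far from the start belongs, such as those 9917 bp from FOSL1 and 10418 bp from JUNB, was not determined.

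The edge of the window fell between peaks that differed little in distance. Just inside were the FOSL1 and JUNB peaks above, which overlapped the window only in part. Just outside were a peak 10222 bp upstream of JUND, with a fold enrichment of 4.79, and one 10673 bp downstream of FOSB, with a fold enrichment of 12.1.

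Peaks with a fold enrichment of at least 10 were found farther from the genes, and this search was chosen after the values at the genes were seen. FOSB was closely flanked, by the peak 10.7 kb downstream and by one 12.1 kb upstream with a fold enrichment of 10.3. FOS had such peaks 19.6 kb upstream (chromosome 14, 75258779 to 75259713) and 15.4 kb downstream (75293834 to 75294716). Their fold enrichments were 16.5 and 12.4, and their pileups 365 and 219 fragments, so that the upstream peak exceeded the FOS start peak in both measures. For FOSL1 the nearest was 18.7 kb upstream with a fold of 12.1, for JUNB 25.3 kb upstream with a fold of 10.3, and for JUND 41.6 kb upstream, with a −log10 q-value of 363.

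JUN and FOSL2 had fewer listed peaks around them than the other 5 genes. The nearest peak with a fold of at least 10 was 84.0 kb downstream of JUN and 174 kb downstream of FOSL2. Within 100 kb, 6 peaks were listed around JUN and 7 around FOSL2, of which 1 and 0 had such a fold, while FOS had 10 peaks, FOSL1 16, JUND 20, FOSB 21 and JUNB 34. Per 20 kb this was 0.6 at JUN and 0.7 at FOSL2, above the averages of 0.399 on chromosome 1 and 0.260 on chromosome 2. The other 5 genes were above theirs too. FOS had 1 beside 0.206 on chromosome 14, and FOSL1 1.6 beside 0.363 on chromosome 11. JUND had 2, FOSB 2.1 and JUNB 3.4, beside 1.09 on chromosome 19. These averages take in whole chromosomes, whereas each window is centred on a gene whose own peaks are counted. As a measure of the list, peaks below a fold of 10 on chromosomes 1 to 22 and X had a median distance of 58.3 kb to the nearest peak at or above it, with 48.9 kb on chromosome 1, 74.4 kb on chromosome 2, 48.0 kb on chromosome 11, 61.7 kb on chromosome 14 and 29.7 kb on chromosome 19. The nearest such peak was farther than the median of the gene's own chromosome at JUN, JUND and FOSL2, and closer at the other 4 genes. Whether these distant peaks control any gene was not examined.

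**Figure D5:**
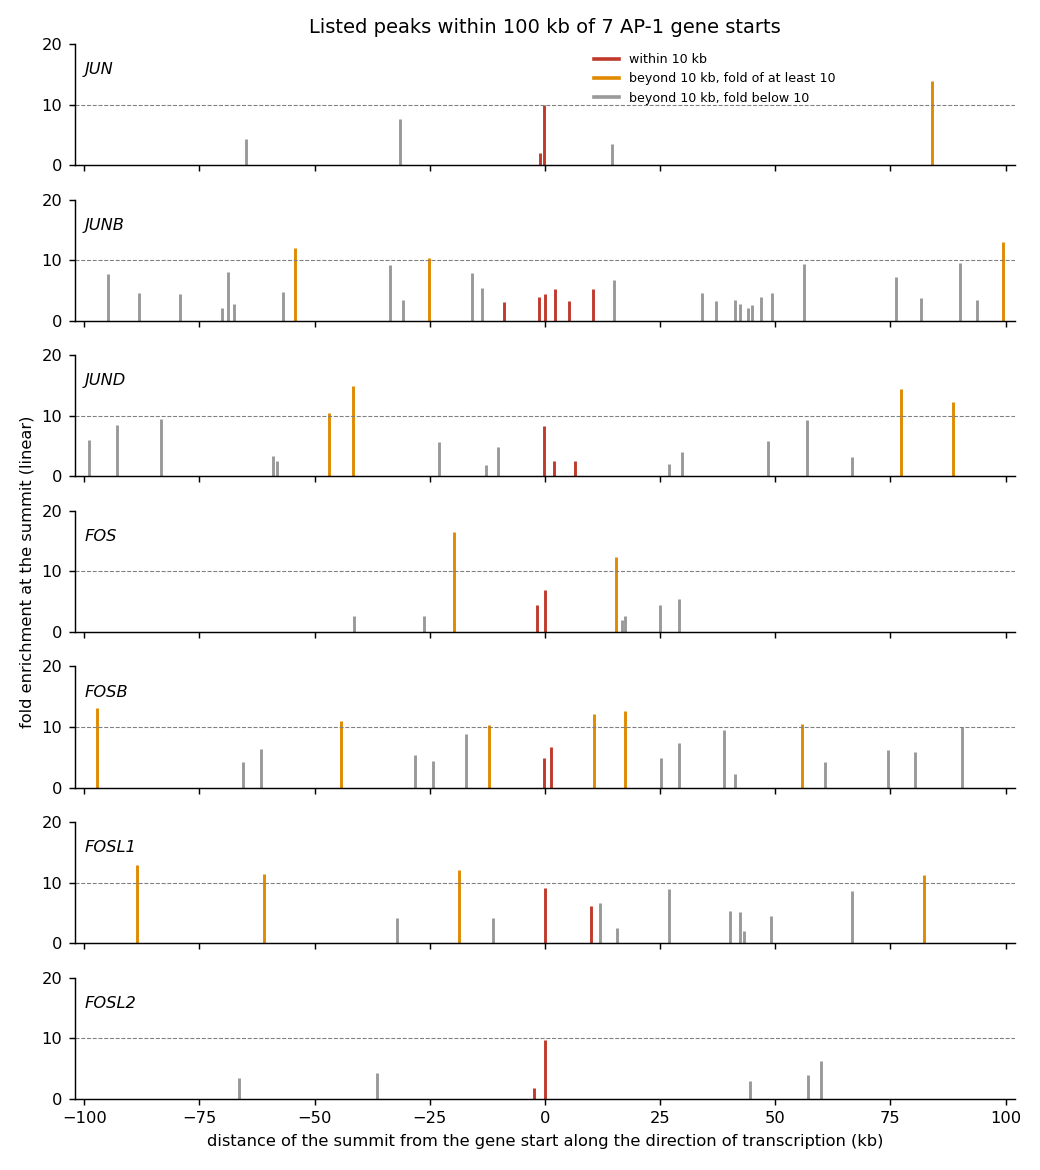
Each panel shows 1 gene, with the distance of peak summits from the gene start in kb along the direction of transcription, and each line is 1 listed peak whose height is its fold enrichment. Red lines are the peaks within 10 kb, orange lines those farther away with a fold of at least 10, and grey lines the rest. FOS has an orange line on either side within 20 kb, and FOSL2 has 0 orange lines within 100 kb.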

How the data were processed

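ATAC-seq was performed on 4 libraries of HEK293 cells. Per the labels and the methods, the authors trimmed adapters with Trimmomatic, aligned with Bowtie2 to GRCh38.p10, used Picard to mark duplicates and MACS2 to call peaks. The authors deposited 1 list from the merged libraries, with each peak's position, score, fold enrichment (a linear ratio), −log10 p-value, −log10 q-value and summit. Columns of single samples number 0, so the TRAFTACs could not be compared, replicate error could not be given and no test was run.

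Peaks overlapping 10 kb either side of each gene start were taken, in 1-based coordinates, with gene directions from general knowledge. Pileup and local background were recovered by the search for a whole Poisson count (pseudocount 1, misfit at most 0.001), which was tested on simulated data. Pileup intervals are exact 95% Poisson intervals. Python 3.11.15, numpy 2.4.6, pandas 2.3.3, scipy 1.17.1 and matplotlib 3.10.9 were used.

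The genes named are the 7 members. They, the windows and the thresholds were chosen with earlier results of these data known. Alternatives varied the window, the q-value, the fold threshold, the background peaks and the recovery. Promoter sequences, motifs, HEK293 marker genes and further AP-1 pathway genes were not analysed here, because the reference at hand was of the mouse.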

Additional observations from a re-analysis of the deposited data

How the results depend on the processing

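The number of peaks at the 7 genes was 19, and was 37 with 20 kb on either side. It ranged from 15 to 19 with 5 kb, after restriction to −log10 q-values from 5 or from 2 upward, and with the summit required inside the window. The share with a fold enrichment of at least 10 was 0% and became 47.4% when the limit was 5. The share of all peaks with a fold of at least 10 was 21.8%, and it was 25.2% where the −log10 q-value reached 5, 22.8% on the chromosomes of the 7 genes, and 78.6% where it reached 100, which was chosen after seeing the data. The cause was not tested. With 20 kb the highest fold enrichment was 16.5 at FOS, 12.7 at FOSB, 12.1 at FOSL1 and 7.88 at JUNB, while those of JUN, JUND and FOSL2 were unchanged. The number of genes with the start inside a peak was 7 under both of its alternatives. With a pseudocount of 0, a whole pileup was recovered for 0 of the 7 start peaks, and likewise for 0 with the tail counted from the pileup itself, which was chosen after seeing the data. The medians of width, 677 bp, and of fold enrichment, 4.85, stayed within their 95% order-statistic intervals under their 3 alternatives each. These intervals were wide, 508 to 1255 bp and 3.14 to 6.97, and treat peaks that share windows as independent. The alternatives also share many peaks with the main set, so staying inside says little about how robust the medians are.

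Replicates were not left out, as each listed value is of all libraries together. No paired analysis was possible because replicate numbers are absent from the pooled values. The lowest pileup at the genes was 58 fragments, in the JUNB peak 8791 bp upstream, and the FOSL2 peak with the lowest fold had 84 over a background of 45.1.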
